A study of Mus musculus with 5 samples.

Results

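The genes described here encode the machinery of synaptic vesicle exocytosis. They were the protein-coding genes of the deposited count table whose symbols name a synapsin (Syn1 to Syn3), synaptotagmin (Syt), syntaxin (Stx), syntaxin-binding protein (Stxbp), vesicle-associated membrane protein (Vamp), Snap protein, SV2 protein, complexin (Cplx), Munc13 protein (Unc13) or RIM protein (Rims), together with Syp, Bsn and Pclo. This gave 73 of the 55573 genes in the table, of which 21900 were protein coding. They were taken in 3 classes, with 24 genes of vesicle proteins, 38 genes of SNARE proteins and their regulators and 10 genes of the active zone. Snap91 matched by its symbol, but it encodes the clathrin adaptor AP180 and was kept apart.

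A nerve terminal stores neurotransmitter in small vesicles, which are docked and primed at the active zone, a protein scaffold on the inner face of the presynaptic membrane, and fuse when calcium enters. Fusion is driven by SNARE proteins, of which VAMP sits on the vesicle and syntaxin and SNAP25 on the plasma membrane, while Munc18, Munc13 and complexin control their assembly and synaptotagmin on the vesicle senses calcium. Many SNARE proteins named by the same symbols serve the Golgi, endosomes or lysosomes of every cell, so the families hold synaptic and general members side by side.

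RNA was measured by poly(A)-selected, strand-specific RNA-seq in N2A (Neuro-2A) cells, a mouse neuroblastoma line that serves as an accessible source of neural cells. The cells carried no labelled gene deletion and received 60 pmol of siRNA, either the commercial Silencer Negative Control #1 (siCtl, 2 libraries, replicates 1 and 3) or an siRNA against Upf1 (siUpf1, 3 libraries, replicates 1, 2 and 3). Upf1 encodes an RNA helicase needed for nonsense-mediated mRNA decay (NMD), which degrades mRNAs with a premature stop codon and many normal mRNAs, and the study used the comparison to find mRNAs that rise when UPF1 is depleted. It was a partial depletion in 1 line with 1 siRNA against Upf1 and without a rescue, so effects of UPF1 loss and other effects of this siRNA or of the control siRNA cannot be told apart. The paper describes its western blots of this knockdown as representing 3 independently performed experiments. The labels of the libraries do not say whether replicates were separate cultures, and p-values then measure only the spread between these libraries.

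The sequence on the labels is the sense strand, which was found in both Upf1 transcripts of the annotation. Both strands are shown because bases 2 to 8 of a strand, the seed in capitals, can pair with other mRNAs.
siRNA sense strand: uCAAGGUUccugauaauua
siRNA antisense strand: uAAUUAUCaggaaccuuga

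Upf1 itself (ENSMUSG00000058301.8, chromosome 8, 70331525 to 70353278, minus strand) fell to 46.8% of its siCtl level, from 5229.9 ± 18.1 normalised counts (SD, n = 2) to 2449 ± 46.6 (SD, n = 3; log2 fold change -1.10 with an SE of 0.0507, adjusted p = 7.09e-101 by DESeq2). Positions are those of GRCm38. Normalised counts here are reads assigned to a gene divided by the library's DESeq2 size factor. The libraries held between 20402205 and 27717594 assigned reads, and their size factors lay between 0.797 and 1.12. Of 10 neuronal or neuroblastoma markers 8 were detected (at least 10 reads in at least 2 libraries), Nefl and Nefm being the exceptions, and their summed level per kb of exon was 12156 to 12302 in siCtl and 13403 to 14407 in siUpf1 libraries, with 5 of them called higher and 1 lower. Markers of astrocytes, oligodendrocytes, immune cells, fibroblasts and endothelial cells summed to at most 68.7 in any library for any list, and Slc1a3, Mog and Kdr had no reads. The endothelial sum was 35.3 to 36.6 in siCtl and 22.3 to 23.4 in siUpf1 libraries, with 1 of its 3 genes called lower, and no gene of the other 4 lists was called. Without overlap, the immune sum was also lower in siUpf1 libraries (23.5 to 26.9, against 27.1 to 29) and the oligodendrocyte (65.9 to 68.7, against 60.1 to 64.8) and fibroblast sums (14.1 to 14.5, against 12.9 to 13.5) were higher. The part of these shifts in marker levels in the results below was not tested, and in bulk RNA fewer cells of a type and less RNA per cell cannot be told apart.

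A larger share of the exocytosis genes than of all tested genes was called changed, and over the whole set the excess lay in genes that rose. Of the 73 genes, 58 were detected and all 58 entered the test. DESeq2 called 41 of them changed (adjusted p under 0.05), or 70.7% against 44.9% of all 15191 genes tested. Higher in siUpf1 were 28 genes, or 48.3% against a background of 22.0%, and lower were 13, or 22.4% against 22.9%. That background includes non-coding genes, while all members were protein coding. Of the 12730 coding genes tested, 3122 were higher and 3390 lower. The median log2 fold change of the 58 was 0.22, while that of all tested genes was -0.0024. Abundant genes are called more readily, and of the 54 members averaging 100 or more normalised counts 27 (50%) were higher, against 28.1% of such genes, and 13 (24.1%) were lower, against 29.4%.

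Among larger changes, of at least 0.5 on the log2 scale, 14 members were higher (24.1%, against 10.2% of all genes tested) and 7 were lower (12.1%, against 8.31%). Every siUpf1 library lay above both siCtl libraries for 33 members (56.9%, against 34.3%) and below both for 19 (32.8%, against 35.2%). Of 17 vesicle genes tested 10 were higher and 2 lower, with a median of 0.39, and of 7 active zone genes 5 were higher and 1 lower, with a median of 0.65. Of 33 SNARE genes 13 were higher and 10 lower, with a median of -0.071. Within them, the 25 SNARE proteins split into 8 higher and 9 lower (median -0.084) and the 8 tested regulators into 5 and 1 (median 0.23). Of all 15191 genes tested, 22.0% were higher and 22.9% lower. Among the 33 SNARE genes, and among the 25 SNARE proteins, both the higher and the lower share exceeded these backgrounds. The difference between classes was not tested.

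**Figure D1:**
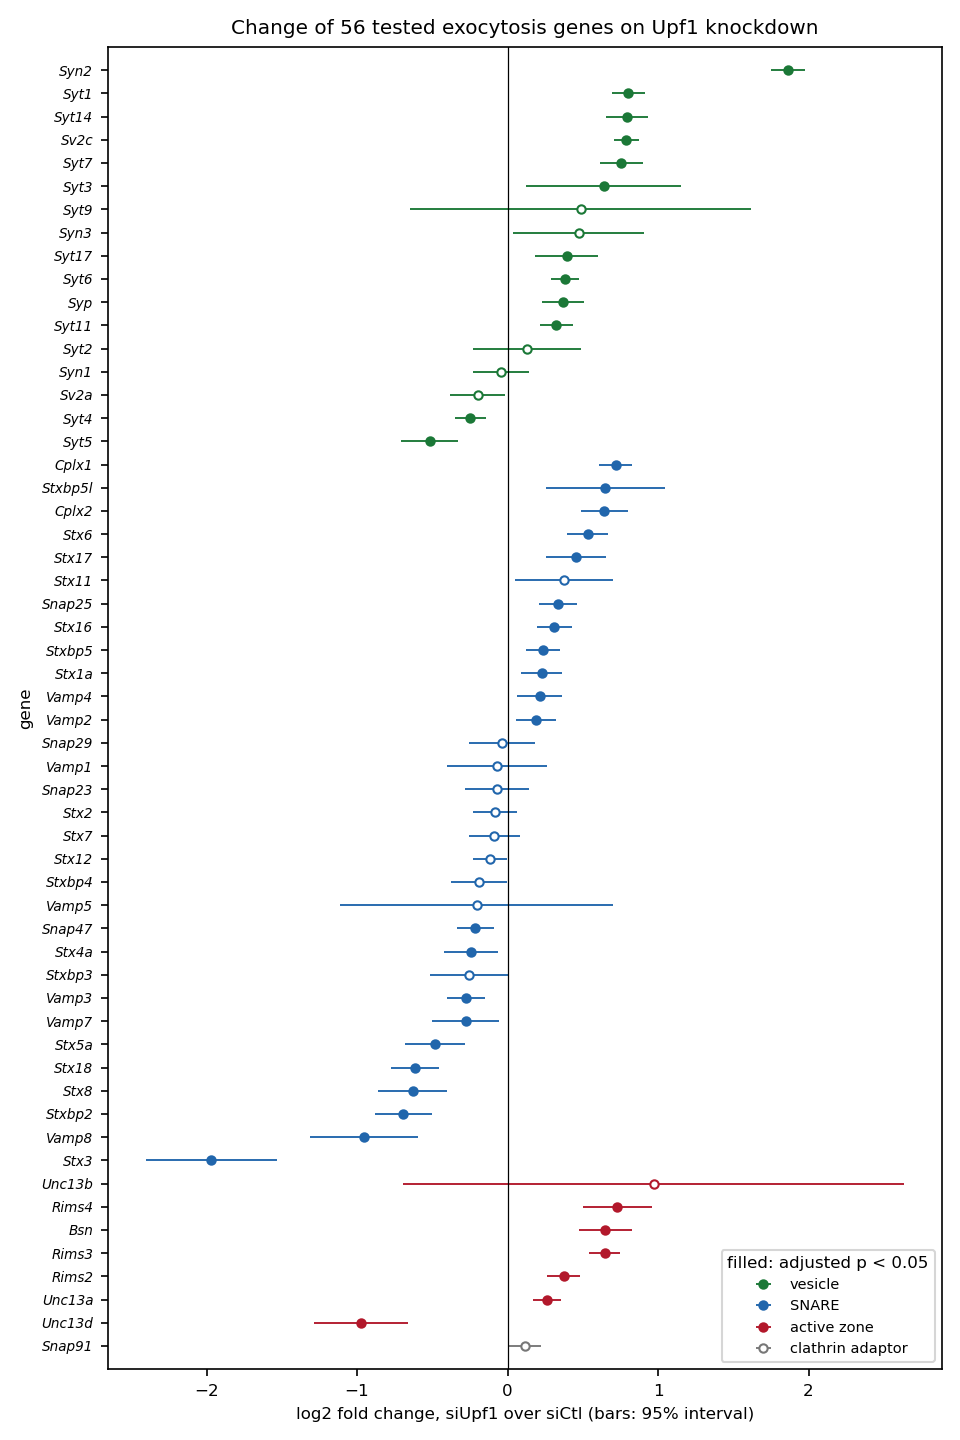
Each point gives the log2 fold change of siUpf1 over siCtl for 1 of 56 tested genes, with its 95% interval as a bar, coloured by class and filled where the DESeq2 adjusted p was under 0.05. Vesicle and active zone genes sit mostly to the right of 0, SNARE genes spread over both sides, and Syn2 (1.86) and Stx3 (-1.97) lie farthest out.

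No reads were assigned in any library to Pclo, Stx19, Vamp9, Syt10, Syt15 and Syt16. A further 9 genes had too few reads to be tested, with at most 10 reads in any library, and these were Cplx3, Cplx4, Stxbp6, Rims1, Unc13c, Sv2b, Syt8, Syt12 and Syt13. Changes of these genes were not detectable at this depth. Piccolo (Pclo), RIM1 and the vesicle protein SV2B, which are standard parts of brain synapses, are thus among the genes with few or no reads in N2A cells.

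The synapsins, which coat vesicles and tether them in a reserve pool, contained the member with the largest increase. Syn2 (ENSMUSG00000009394.13, chromosome 6, 115134902 to 115282006, plus strand) had 1399 and 1345 normalised counts in the siCtl libraries and 5012, 4849.6 and 5104 in the siUpf1 libraries. The 3 siUpf1 libraries were far above the siCtl pair and close to each other, a 3.63-fold difference (log2 fold change 1.86 with an SE of 0.0562, adjusted p = 6.63e-237 by DESeq2). Syn1, its paralog (ENSMUSG00000037217.15, chromosome X, 20860511 to 20921004, minus strand), had 999 and 930.2 in siCtl and 936, 1038 and 839.7 in siUpf1 libraries. These ranges overlapped, and the log2 fold change was -0.044 (95% interval -0.23 to 0.14, adjusted p = 0.752). Syn3 was a minor synapsin that DESeq2 did not call (log2 fold change 0.47, 95% interval 0.038 to 0.91, adjusted p = 0.0699), while edgeR called it higher (adjusted p = 0.0136), as did DESeq2 with a minimum of 10 counts in 2 libraries (0.0471) or after removal of the trend with length and GC content (0.0396). Over all alternatives its adjusted p was 0.0136 to 0.379.

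Because these paralogs changed unequally, the make-up of the family shifted. Per kb of exon, Syn1 made up 59.0% ± 0.507 (SD, n = 2) of synapsin normalised counts in siCtl and 28.3% ± 2.67 (SD, n = 3) in siUpf1 libraries. Syn2 went from 39.4% ± 0.550 to 70.6% ± 2.61, and the libraries of the groups did not overlap in either share. By this measure the most abundant synapsin was Syn1 in both siCtl libraries and Syn2 in all 3 siUpf1 libraries. The order in siCtl depends on the length used, the union of exons of all annotated transcripts (7031 nt for Syn2, 3299 nt for Syn1). The representative transcript had 2708 nt for Syn2 and 3209 nt for Syn1. In plain normalised counts Syn2 was above Syn1 in both siCtl libraries already. Shares of this kind were compared as levels only, since a permutation of 2 against 3 libraries cannot give a p below 0.1.

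The promoters of this pair are shown because one gene rose and the other was not called. They are RefSeq sequences of GRCm38.p6, from 250 bases before to 50 bases after the annotated start. Capitals mark TTCAGCACC, the left part of the RE1 element that the repressor REST binds, and the GC box CCGCCC, each searched on both strands.
Syn2, first of 2 annotated starts, chr6:115134652-115134951, plus strand: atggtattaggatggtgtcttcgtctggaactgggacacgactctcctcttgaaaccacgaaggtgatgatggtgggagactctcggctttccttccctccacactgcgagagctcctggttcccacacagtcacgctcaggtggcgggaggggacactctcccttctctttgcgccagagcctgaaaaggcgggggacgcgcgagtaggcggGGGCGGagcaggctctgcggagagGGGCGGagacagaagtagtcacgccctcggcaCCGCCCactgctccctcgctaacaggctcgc
Syn1, chrX:20920869-20921168, minus strand: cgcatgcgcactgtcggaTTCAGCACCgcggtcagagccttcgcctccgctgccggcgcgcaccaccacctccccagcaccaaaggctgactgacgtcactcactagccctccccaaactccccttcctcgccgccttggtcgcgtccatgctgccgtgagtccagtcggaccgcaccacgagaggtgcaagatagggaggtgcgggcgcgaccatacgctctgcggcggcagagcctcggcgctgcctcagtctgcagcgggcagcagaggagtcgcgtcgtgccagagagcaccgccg
The Syn2 window held 3 GC boxes and no TTCAGCACC, and the Syn1 window held 1 TTCAGCACC and no GC box. The promoter at the second annotated start of Syn2 held neither. Of the 56 members with a promoter in the table, 2 held TTCAGCACC (3.57%), Syn1 and Unc13a, against 0.433% of 27025 genes. The GC box was found in 43 of them (76.8%, against 38.2%), and in 17 of 20 higher, 5 of 8 lower and 13 of 16 uncalled members with a promoter. The 27025 genes were not limited to coding genes or to genes detected in these cells. They are thus an unlike set to the members, which were all protein coding. These matches describe the letters in the windows only.

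Of the other vesicle membrane proteins, Syp, which encodes the tetraspan protein synaptophysin, had 1285 and 1395 normalised counts in siCtl and 1733, 1804 and 1669.6 in siUpf1 libraries. All siUpf1 libraries were above both siCtl libraries (log2 fold change 0.37 with an SE of 0.0714, adjusted p = 1.17e-06 by DESeq2). Sv2c encodes a transporter-like vesicle glycoprotein that botulinum neurotoxin A uses as a receptor. It had 5683 and 5511 in siCtl and 9764, 9551 and 9651 in siUpf1 libraries, a 1.73-fold increase with little spread within either group (log2 fold change 0.79 with an SE of 0.0424, adjusted p = 1.02e-74 by DESeq2). Its paralog Sv2a, the target of the antiepileptic drug levetiracetam, was not called (log2 fold change -0.20, 95% interval -0.38 to -0.019, adjusted p = 0.0648), and edgeR called it lower. Sv2c was already the main SV2 gene in siCtl, with 76.6% ± 1.02 of SV2 counts per kb, and reached 86.6% ± 0.581 in siUpf1 libraries.

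Synaptotagmins were the largest group of vesicle genes, with 17 members. Of the 11 tested, 7 were higher and 2 lower, beside 22.0% and 22.9% of all genes tested. Syt1, the fast calcium sensor for synchronous release, had 3658 and 3572 normalised counts in siCtl and 6769, 6034 and 6106 in siUpf1 libraries. The groups were well apart (log2 fold change 0.80 with an SE of 0.0566, adjusted p = 7.29e-44 by DESeq2). Syt7, a slower sensor with high calcium affinity that serves asynchronous release, had 1247 and 1121 in siCtl and 1942, 2097 and 1962 in siUpf1 libraries (log2 fold change 0.76 with an SE of 0.0728, adjusted p = 7.02e-24 by DESeq2). Syt14, a synaptotagmin not thought to bind calcium, had 1135 and 1139 in siCtl and 2046, 1854 and 2010.1 in siUpf1 libraries (log2 fold change 0.79 with an SE of 0.0711, adjusted p = 1.82e-27 by DESeq2). For these 3 genes the rise was between 1.69-fold and 1.74-fold.

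Syt3, another calcium-binding member, was expressed at a low level, with 57.7 and 67.0 normalised counts in siCtl and 96.1, 107 and 90.0 in siUpf1 libraries. The groups did not overlap, but its call (log2 fold change 0.64, SE 0.26, adjusted p = 0.0345) was lost when any 1 of the 5 libraries was left out (adjusted p between 0.0787 without siUpf1 replicate 3 and 0.257 without siCtl replicate 1). Smaller increases were called for Syt6 (0.38), Syt17 (0.39) and Syt11 (0.32). Syt2, which replaces Syt1 at fast synapses of the hindbrain and at neuromuscular junctions, was not called (0.13, 95% interval -0.23 to 0.49), nor was Syt9, with at most 23.2 normalised counts in any library.

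Syt4 and Syt5 moved the other way. Syt4, a synaptotagmin of dense-core vesicles whose first C2 domain lacks calcium-binding residues, had 3972 and 3862 normalised counts in siCtl and 3421, 3198 and 3269 in siUpf1 libraries (log2 fold change -0.25 with an SE of 0.0531, adjusted p = 1.42e-05 by DESeq2). Syt5, a calcium-binding isoform, had 853 and 824 in siCtl and 607, 599.9 and 551 in siUpf1 libraries (log2 fold change -0.52 with an SE of 0.0957, adjusted p = 3.7e-07 by DESeq2). For each, the siCtl pair stood above every siUpf1 library. Per kb of exon Syt4 was the most abundant synaptotagmin in siCtl, at 1006 ± 19.9, but in siUpf1 libraries Syt6 was, at 941 ± 7.81 against 847 ± 29.2 for Syt4. In plain normalised counts Syt6 led in siCtl and Syt1 in siUpf1 libraries, so the order depends on the length used. Syt6 had 4285 and 4127 normalised counts in siCtl and 5517, 5433 and 5506 in siUpf1 libraries (log2 fold change 0.38 with an SE of 0.0468, adjusted p = 3.45e-15 by DESeq2).

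**Figure D2:**
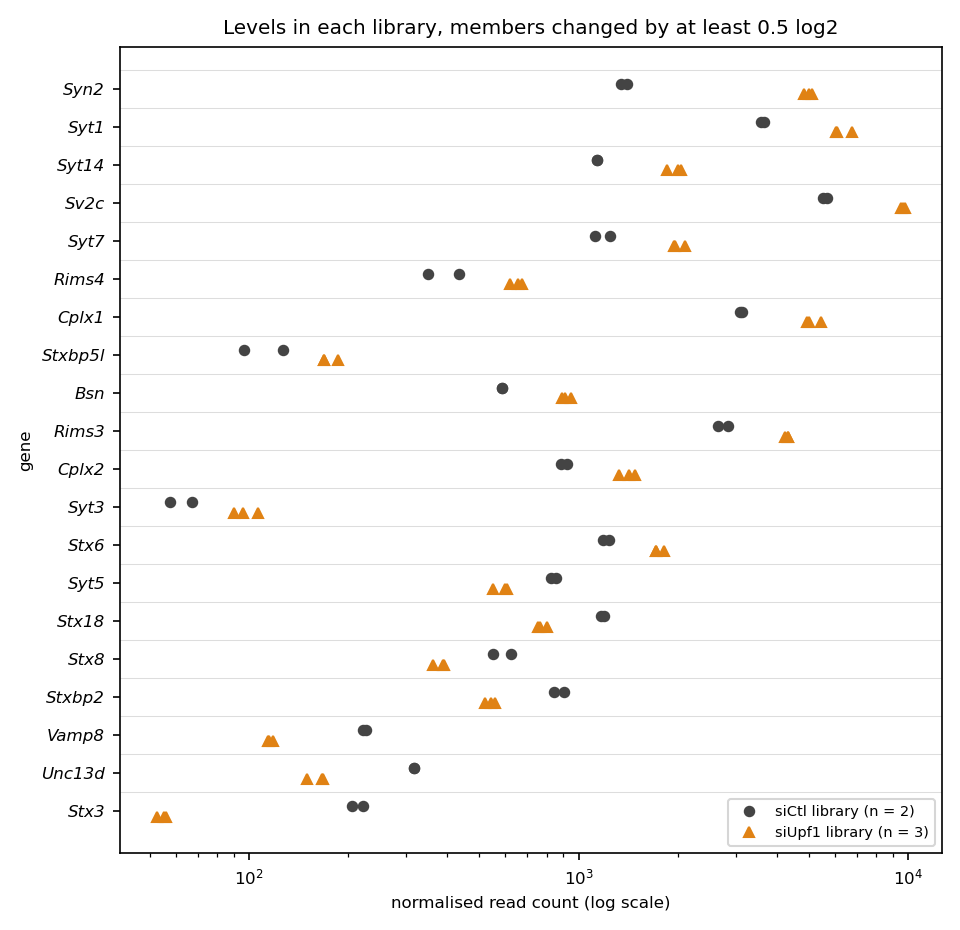
Normalised read counts on a log axis for 20 genes called with a change of at least 0.5 on the log2 scale, with circles for the 2 siCtl and triangles for the 3 siUpf1 libraries. The groups are separate in each of the 20 genes, with the siUpf1 libraries to the right in the upper 13 and to the left in the lower 7.

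The genes of the synaptic SNARE complex were called higher with small changes. Snap25 (0.34), Stx1a (0.23) and Vamp2 (0.19), which encode its 3 proteins, were called higher. The call for Stx1a was lost without siCtl replicate 1 (adjusted p = 0.0792) or 3 (0.0655), and that for Vamp2 without siCtl replicate 1 (0.0553) or 3 (0.221) or siUpf1 replicate 1 (0.0531) or 2 (0.0666). Vamp1, the other synaptic VAMP, was not called (-0.069, 95% interval -0.40 to 0.26).

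Stx3 had the largest decrease of all members. It encodes a syntaxin of apical membranes and of the ribbon synapses of the retina. Stx3 (ENSMUSG00000041488.16, chromosome 19, 11775118 to 11819403, minus strand) had 222 and 205 normalised counts in siCtl and 56.0, 55.2 and 52.6 in siUpf1 libraries. The siUpf1 libraries were close to each other, at 25.6% of the siCtl mean (log2 fold change -1.97 with an SE of 0.22, adjusted p = 1.72e-17 by DESeq2). It was a minor syntaxin, with 1.04% ± 0.0584 of syntaxin counts per kb in siCtl and 0.264% ± 0.00841 in siUpf1 libraries. Vamp8, a VAMP of late endosomes and of secretory granules outside the nervous system, had 222 and 226 in siCtl and 118, 114 and 115 in siUpf1 libraries, again without overlap (log2 fold change -0.95 with an SE of 0.18, adjusted p = 1.25e-06 by DESeq2).

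Syntaxins of other membranes changed in both directions. Stx8, of endosomes, had 550.3 and 625 normalised counts in siCtl and 388, 390.3 and 363 in siUpf1 libraries (log2 fold change -0.63 with an SE of 0.12, adjusted p = 3.09e-07 by DESeq2). Stx18, of the endoplasmic reticulum, had 1171 and 1195 in siCtl and 754, 762 and 802 in siUpf1 libraries (log2 fold change -0.61 with an SE of 0.0824, adjusted p = 1.01e-12 by DESeq2). Both fell in every siUpf1 library. Stx5a, of the Golgi (-0.48), and Stx4a, of the plasma membrane (-0.24), were called lower too, the latter not without siCtl replicate 1 (adjusted p = 0.124) or 3 (0.158) or siUpf1 replicate 1 (0.0505) or 3 (0.11).

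Stx6, a syntaxin of the trans-Golgi network, moved the other way. It had 1238 and 1187 normalised counts in siCtl and 1714, 1723 and 1819 in siUpf1 libraries (log2 fold change 0.53 with an SE of 0.07, adjusted p = 3.3e-13 by DESeq2). Stx16, its partner there (0.31), and Stx17, of autophagosomes (0.45), were higher as well. Stx12, an endosomal syntaxin with the highest mean level per kb of the family in both groups (in siUpf1 replicate 1 Stx16 was higher), had 2632 and 2643 normalised counts in siCtl and 2389, 2452 and 2459 in siUpf1 libraries and was not called (-0.12, 95% interval -0.23 to -0.0066, adjusted p = 0.0782), although edgeR called it. Stx2, of the plasma membrane (-0.084), Stx7, of late endosomes (-0.087), and Stx11, which serves granule release in lymphocytes (0.38), did not pass either, and edgeR called Stx11.

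Vamp3, the VAMP of recycling endosomes known as cellubrevin, had the highest level per kb of its family, and its normalised counts were 2132 and 2261 in siCtl and 1826, 1875 and 1746 in siUpf1 libraries (log2 fold change -0.28 with an SE of 0.0644, adjusted p = 7.37e-05 by DESeq2). Vamp7, of lysosomes, was called lower (-0.28), but not without siCtl replicate 1 (adjusted p = 0.104) or 3 (0.295) or siUpf1 replicate 2 (0.151) or 3 (0.165). Vamp4, of the trans-Golgi network, was called higher (0.22), but not without siCtl replicate 1 (0.0932) or 3 (0.163) or siUpf1 replicate 1 (0.0767). Vamp5, first known from muscle, was scarcely expressed and not called (-0.20, 95% interval -1.11 to 0.70).

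Snap47, a widely expressed relative of SNAP25, had the highest level of the Snap genes per kb of exon. Its normalised counts were 1993 and 2005 in siCtl and 1718, 1722 and 1728 in siUpf1 libraries. Libraries of 1 group hardly differed from each other, and the small decrease was called (log2 fold change -0.21 with an SE of 0.0621, adjusted p = 0.00176 by DESeq2), though not without siCtl replicate 3 (adjusted p = 0.0578). Snap25 took 27.7% ± 0.0324 of Snap counts per kb in siCtl and 35.2% ± 1.78 in siUpf1 libraries. These shares and the rank of Snap47 depend on the exon length, 6791 nt for Snap25 and 2651 nt for Snap47. The representative transcripts had 2116 nt and 1896 nt. In plain normalised counts Snap25 was above Snap47, at a siCtl mean of 2656 against 1999. Snap23 (-0.071, 95% interval -0.28 to 0.14) and Snap29 (-0.036, 95% interval -0.26 to 0.18), which serve fusion in most cell types, were not called.

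Among the regulators of SNARE assembly both detected complexins rose. Complexins are small proteins that bind the assembled SNARE complex and hold it until calcium arrives. Cplx1 had 3092 and 3139.8 normalised counts in siCtl and 4928, 5455 and 5015 in siUpf1 libraries (log2 fold change 0.72 with an SE of 0.0555, adjusted p = 1.42e-36 by DESeq2). Cplx2 had 920.4 and 886 in siCtl and 1420.3, 1486 and 1326 in siUpf1 libraries (log2 fold change 0.64 with an SE of 0.0799, adjusted p = 1.21e-14 by DESeq2). Both were higher in every siUpf1 library, and Cplx1 had 88.5% ± 0.425 of complexin counts per kb in siCtl and 89.1% ± 0.444 in siUpf1 libraries. Per kb, Cplx1 was the most abundant of all 73 genes in both groups, at 1424 ± 15.3 normalised counts per kb in siCtl and 2345 ± 129 in siUpf1 libraries.

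Of the syntaxin-binding proteins, Stxbp2 encodes Munc18-2, which acts in epithelia and blood cells, and had 906 and 839.7 normalised counts in siCtl and 543, 559.8 and 519 in siUpf1 libraries (log2 fold change -0.69 with an SE of 0.0965, adjusted p = 6.96e-12 by DESeq2). It was lower in every siUpf1 library. Stxbp3, another Munc18, was not called (-0.26, 95% interval -0.51 to 0.0013), nor was Stxbp4 (-0.19, 95% interval -0.37 to -0.0034), but edgeR called both lower.

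The tomosyns, which compete with VAMP for syntaxin and so restrain fusion, were both called higher. Stxbp5 had a small change (0.24). Stxbp5l, the less abundant one, had 96.4 and 126 normalised counts in siCtl and 187, 169 and 169 in siUpf1 libraries (log2 fold change 0.65 with an SE of 0.20, adjusted p = 0.00402 by DESeq2). The siCtl libraries were unequal, and without siCtl replicate 1 its log2 fold change was 0.47 and the call was lost (adjusted p = 0.171).

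Of the 7 active zone genes tested 5 rose, and Unc13d fell, beside 22.0% higher and 22.9% lower of all genes tested. Rims3, which encodes a short RIM protein without the domains that bind vesicles, had 2833 and 2644 normalised counts in siCtl and 4222, 4325 and 4308 in siUpf1 libraries (log2 fold change 0.65 with an SE of 0.0532, adjusted p = 2.49e-32 by DESeq2). Rims4, of the same short kind, had 434 and 349 in siCtl and 618, 673 and 654 in siUpf1 libraries (log2 fold change 0.73 with an SE of 0.12, adjusted p = 2.96e-09 by DESeq2). Bsn, for the giant scaffold protein bassoon, had 584 and 588 in siCtl and 912, 892 and 950.2 in siUpf1 libraries (log2 fold change 0.65 with an SE of 0.0907, adjusted p = 7.88e-12 by DESeq2). In all 3 genes each siUpf1 library was above both siCtl libraries. Rims2, which encodes a full-length RIM, rose as well (log2 fold change 0.37, SE 0.0561).

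Unc13a encodes Munc13-1, the main priming factor of brain synapses, and Unc13d encodes Munc13-4, which primes granules of blood cells. Unc13a had 5673 and 5234 normalised counts in siCtl and 6467, 6474 and 6674 in siUpf1 libraries (log2 fold change 0.26 with an SE of 0.049, adjusted p = 5.23e-07 by DESeq2). Unc13d had 318 and 316 in siCtl and 168, 167 and 149.8 in siUpf1 libraries (log2 fold change -0.97 with an SE of 0.16, adjusted p = 5.75e-09 by DESeq2). One rose and the other fell in every siUpf1 library, and the share of Unc13d in the family's counts per kb went from 13.6% ± 0.623 to 6.25% ± 0.473. Unc13b was near the limit of detection, with between 5.24 and 17.6 normalised counts, and was not called (log2 fold change 0.97, 95% interval -0.69 to 2.63). The clathrin adaptor gene Snap91, which acts when vesicles are retrieved, was not called by DESeq2 (0.11, 95% interval 0.0034 to 0.23), while edgeR called it higher.

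**Figure D3:**
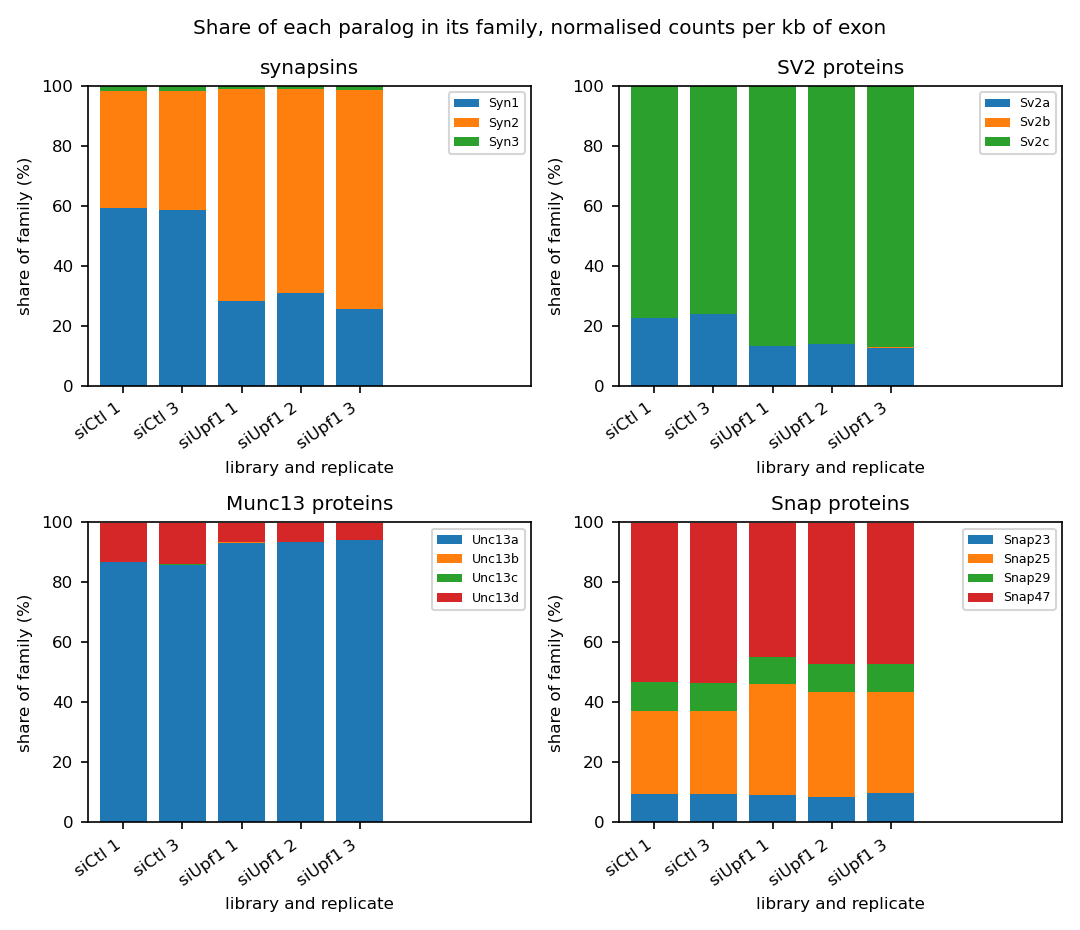
Stacked bars give, for each library, the share of each paralog in its family's normalised counts per kb of exon, in percent, for synapsins, SV2 proteins, Munc13 proteins and Snap proteins. Between siCtl and siUpf1 libraries the share of Syn2 rose from 39.4% to 70.6%, that of Sv2c from 76.6% to 86.6%, that of Unc13a from 86.4% to 93.6% and that of Snap25 from 27.7% to 35.2%.

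Features that the choice by symbol did not use were compared next. Representative 3′ untranslated regions (3′ UTRs), 1 per gene, were known for 57 of the 58 tested members. Their median length was 2766 nt in the 28 higher members and 957 nt in 12 lower members, against 1474 nt and 817 nt in all coding genes called higher or lower. The 17 uncalled members had a median of 1914 nt, against 910 nt in uncalled coding genes. Over all 57 members the median was 1730 nt, against 996 nt in all coding genes tested. Of 15 members with 3′ UTRs of 3000 nt or more, 12 (80.0%) were higher and only Stx8 was lower (median log2 fold change 0.54). Of all 1715 tested coding genes of that length 38.9% were higher and 20.2% lower (median 0.11). Of 16 members with less than 1000 nt, 6 (37.5%) were higher and 6 lower (median -0.12), against 17.6% and 30.3% of 6347 coding genes (median -0.087). Of 26 members from 1000 to under 3000 nt, 10 (38.5%) were higher and 5 lower, against 28.7% and 24.2% of 4596 coding genes. Among all coding genes higher calls were thus more frequent in each longer group. By representative length, their share in members stood out only at 3000 nt or more. Sv2c (6686 nt) and Syt14 (6074 nt) had the longest representative 3′ UTRs of the tested members, and both rose. That of Syn2, with the largest increase, had 783 nt, but another annotated 3′ UTR of Syn2 had 2235 nt, and Stxbp5 (955 and 5366 nt), Rims2 (176 and 2608 nt) and Vamp4 (791 and 2007 nt), all higher, likewise had a longer one. By the longest annotated 3′ UTR, a grouping added after seeing the data, 13 of 17 members with 3000 nt or more were higher and 1 lower, against 39.4% and 19.4% of coding genes, and 2 of 9 with less than 1000 nt were higher and 6 lower, against 16.5% and 31.1%. These counts are a description, and genes are not replicates.

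**Figure D4:**
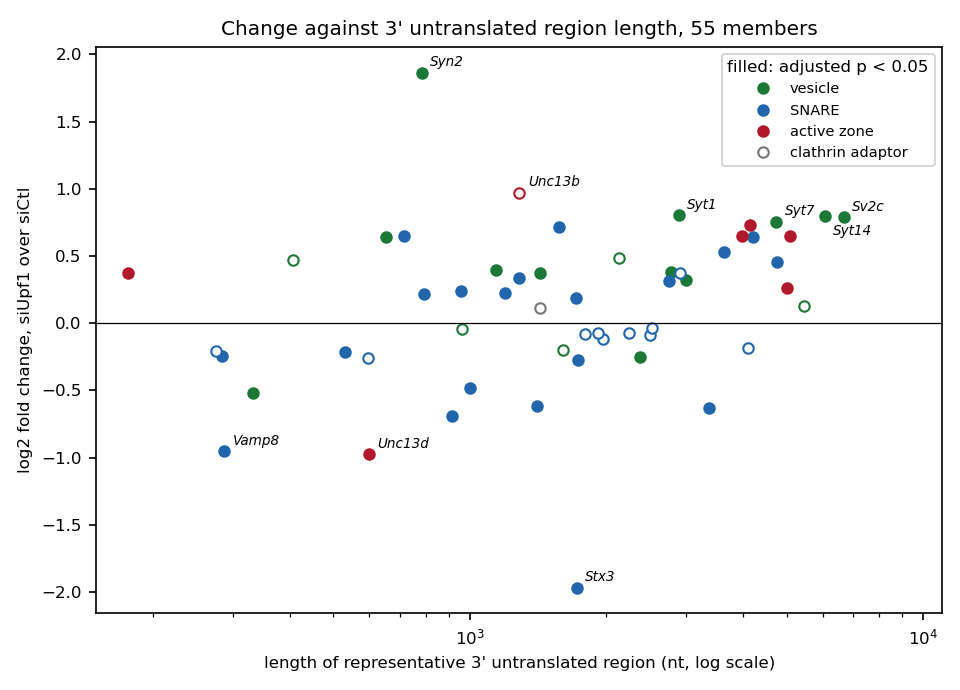
The log2 fold change of siUpf1 over siCtl is plotted against the length of the representative 3′ UTR in nt, on a log axis, for 55 tested genes, coloured by class and filled where the DESeq2 adjusted p was under 0.05. Of the 14 genes with 3000 nt or more, 11 were called higher, while Syn2 (783 nt) and Stx3 (1719 nt) lie far from the rest.

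An NMD transcript was annotated for 14 of the 58 tested members (24.1%), against 28.5% of all coding genes tested. Among them were 6 of the 28 higher members (Stx1a, Stx6, Unc13a, Syt14, Syt6 and Syt7) and 5 of the 13 lower ones (Stx3, Stx4a, Stx5a, Stxbp2 and Unc13d), or 21.4% and 38.5%, against 26.9% and 31.2% of all coding genes called higher or lower. Syn2, Syt1, Sv2c and Cplx1 had none. Bsn was the one tested member with an annotated exon junction more than 50 nt after the stop codon of a coding transcript, a feature that can trigger NMD. The counts are per gene, so isoforms could not be told apart.

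Matches of 7 bases to the seeds of the Upf1 siRNA were looked for in the same 3′ UTRs. The site for the antisense strand, GATAATT, was in 6 of 57 tested members (10.5%, against 7.7% of coding genes), namely Stx3 and Syt4, which fell, Stx17, Syt3 and Syt7, which were called higher, and Stx12, which was not called. The sites of Stx3, Stx17, Syt3 and Syt7 are shown, in capitals, because they stand in the member that fell most and in members that rose. Those of Syt4, which also fell, and of Stx12 are not shown. The positions are those of the 7 bases in GRCm38.
Stx3, chr19:11778492-11778498, minus strand: tagtcactgttaGATAATTgctc
Stx17, chr4:48184207-48184213, plus strand: atgttataatctGATAATTcctc
Syt3, chr7:44400127-44400133, plus strand: tagcctctaaatGATAATTacgg
Syt7, chr19:10452951-10452957, plus strand: agacagctgaagGATAATTcgaa
The site in Stx3 began 706 nt after the stop codon. The part of such sites in the change of any of these genes was not tested. The site for the sense strand, AACCTTG, was in 5 members (8.77%, against 9.85%). Of these, Stx1a, Rims4 and Syt14 were called higher, Syt4 lower, and Syt2 was not called. Among all coding genes, 13.7% of those called lower held this site, against 8.76% of those higher and 8.30% of those not called. For the antisense site these shares were 7.86%, 8.85% and 7.04%. What lies behind these shares was not tested.

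Of 2 further overlapping 7-mers, picked earlier for being frequent in mRNAs that rose in these same libraries, GCAGTAC was in 4 of 28 higher members (Cplx2, Stx17, Syt11 and Syt14) and CAGTACA in 6 (the same 4, Snap25 and Rims4), or 14.3% and 21.4%, against 10.3% and 14.5% of all coding genes called higher. Neither was in any of 12 lower members, and of all lower coding genes 3.02% and 5.68% held them, so a count of 0 among 12 is near the background. Of 17 uncalled members 1 held GCAGTAC and 3 held CAGTACA (5.88% and 17.6%), against 3.73% and 7.46% of uncalled coding genes. Since these letters were chosen on these data, their counts are not independent of the changes. Of the 57 members, 40 had none of the 4 sequences, and 19 of these were higher (47.5%), among them Syn2, Syt1 and Sv2c, and 10 lower (25%), against 22.3% and 26.7% of 9632 coding genes with none. Genes with the 2 chosen 7-mers were left out of both sets, so this split is not independent of the changes either. The part of the sites in the changes was not tested.

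Other genes of the vesicle cycle, 51 genes of transporters, synaptogyrins, Rab3 proteins, NSF and its adaptors, active zone partners and endocytic proteins, moved in both directions. Of 38 tested 13 were higher (34.2%) and 7 lower (18.4%), against the backgrounds of 22.0% and 22.9%, with a median log2 fold change of 0.036 (0.0796 without siCtl replicate 1 and 0.0731 without siUpf1 replicate 2). Slc18a2, for the vesicular monoamine transporter VMAT2, had 1143 and 1103 normalised counts in siCtl and 2780.2, 2395 and 2544 in siUpf1 libraries (log2 fold change 1.20 with an SE of 0.0736, adjusted p = 1.78e-57 by DESeq2). Its paralog Slc18a1, for VMAT1, had 105 and 74.5 in siCtl and 27.6, 31.4 and 26.7 in siUpf1 libraries (log2 fold change -1.66 with an SE of 0.33, adjusted p = 3.98e-06 by DESeq2). The siUpf1 libraries were all higher for the first and all lower for the second.

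Sypl, which encodes a synaptophysin-like protein found in many tissues, had 890.0 and 889 normalised counts in siCtl and 289.9, 285 and 279.9 in siUpf1 libraries (log2 fold change -1.64 with an SE of 0.11, adjusted p = 5.32e-51 by DESeq2). It fell by 1.64 on the log2 scale while Syp rose by 0.37. Rab3a, for the small GTPase that attaches vesicles to RIM proteins, had 291 and 278 normalised counts in siCtl and 736, 728 and 680 in siUpf1 libraries. It rose in every siUpf1 library (log2 fold change 1.33 with an SE of 0.11, adjusted p = 1.26e-30 by DESeq2). These 4 genes were the ones of the 38 with a called change of at least 1 on the log2 scale. Of these 4, only Sypl held sites for the seeds of the Upf1 siRNA in its representative 3′ UTR. It had 1 GATAATT and 3 AACCTTG, and the part of these sites in its fall was not tested.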

How the data were processed

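The authors trimmed reads with fastp, mapped them to GRCm38.p6 with STAR 2.7.0f and made a table of raw read counts per gene with featureCounts (Subread 1.6.4; reverse strand, exons, GENCODE M22 or M25), which they deposited without normalisation or pooling. The table holds no per-sample column without a sample. Uniquely counted reads of near-identical paralogs may be lost, and 2 members, Bsn and Stx5a, share a small part of an exon with a microRNA gene on the same strand.

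Each library was placed in its group by its title. All 55573 rows were fitted with DESeq2 1.42.0 (R 4.3.3) with group as the only term, and p-values were adjusted over the 15191 genes left by independent filtering. A change was called at an adjusted p under 0.05 (Wald test, two-sided). Alternatives were edgeR 4.0.16, TMM and total-count size factors, a minimum of 10 counts in 2 libraries, no filter, the replicate number as a block, each library left out, and a removed length and GC trend. Exon lengths, 3′ UTRs and NMD transcripts came from GENCODE M21, and promoters from RefSeq (56 of 73 members matched by symbol). Exon length was the union of the exons of all annotated transcripts of a gene, and shares and ranks per kb depend on it. Values per library are given for called members with a change of at least 0.5 (log2) and a mean of at least 50 normalised counts, for the most abundant member per kb of each family, and for further vesicle cycle genes called with at least 1. Genes, lists and tests were chosen with earlier results of these data known. Values of 2 members are not reported here, though counts include them.

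Replicate libraries differed by more than sampling noise (chi-square per degree of freedom 5.22 to 21.1). Same-numbered libraries did not deviate together (correlations -0.0861 and -0.0748), so numbers were not taken as pairs. Depth was 20402205 to 27717594 reads; reads carried no molecular identifiers, so counting error is a lower limit.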

Additional observations from a re-analysis of the deposited data

How the results depend on the processing

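No called gene changed direction in the alternatives run, while the log2 fold change of Syn1, which was not called in any of them, ranged from -0.12 to 0.032. Of the 41 calls among the members, 41 were kept by edgeR, by TMM size factors and with a minimum of 10 counts in 2 libraries, 40 with total-count size factors and with the length and GC trend removed, 39 with no filter, 29 with a replicate block, and between 34 and 38 when 1 library was left out. Leaving out a siCtl library leaves 1, which is assumed to vary like the siUpf1 libraries. With the replicate block 20 members were called higher and 9 lower, 7 SNARE genes were higher and 1 vesicle gene was lower, and the median log2 fold change was -0.039 for SNARE and 0.42 for active zone genes; numbers are shared by 2 pairs only and were not shown to pair libraries. Total-count size factors gave medians of 0.42 for vesicle and -0.049 for SNARE genes, TMM gave -0.080 for SNARE genes, and the length and GC trend gave -0.079 for SNARE and 0.48 for active zone genes. With single libraries left out, the median was 0.38 to 0.42 for vesicle, -0.074 to -0.036 for SNARE and 0.47 to 0.65 for active zone genes (0.47 without siUpf1 replicate 2), and 0.036 to 0.080 for further vesicle cycle genes (0.073 with the replicate block). The cause of these shifts was not tested. Calls lost without 1 library were those of Snap47, Stx1a, Stx4a, Stxbp5l, Syt3, Vamp2, Vamp4 and Vamp7, and the other 33 were kept. In all genes, the replicate block called 1957 higher and 1962 lower, against 3341 and 3481. Depth limits statements on the 15 members not tested.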

Other observations

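The level of whole families, summed over their members as normalised counts per kb of exon, was read as values without a test. Complexins had 1601 and 1614 in the siCtl libraries and 2540.4, 2794 and 2560.0 in the siUpf1 libraries. Synapsins had 510.4 and 481 in the siCtl libraries and 1006, 1016 and 993 in the siUpf1 libraries, and SV2 genes had 758 and 749 in the siCtl libraries and 1162, 1145 and 1142 in the siUpf1 libraries. In these 3 families each siUpf1 library was above both siCtl libraries. RIM genes had 676 and 635 in the siCtl libraries and 965, 970.1 and 977 in the siUpf1 libraries, and synaptotagmins had 3487 and 3362 in the siCtl libraries and 4176, 3999 and 3991 in the siUpf1 libraries, again without overlap.

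Syntaxins summed to 3595 and 3585 in the siCtl libraries and 3665, 3574 and 3615 in the siUpf1 libraries, and Snap genes without Snap91 to 1410.3 and 1413 in the siCtl libraries and 1442, 1376 and 1381 in the siUpf1 libraries, so the groups overlapped while single members moved both ways. The VAMP family had 1743 and 1787 in the siCtl libraries and 1678, 1657 and 1582 in the siUpf1 libraries, with the siUpf1 libraries below both siCtl libraries.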
